A study of Mus musculus with 2 samples.

Results

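Serotonin synthesis genes and Tac1, which encodes the precursor of substance P, were followed through single cells of the mouse small intestine. The 9 genes (Tph1, Tac1, Ddc, Slc18a1, Slc18a2, Gch1, Maoa, Maob and Slc6a4) were taken by symbol from the 32285 genes of the count tables, and all 9 had counts. The cells were Tomato+ epithelial cells sorted from whole small intestine of mice 4 to 6 weeks old, with 4 to 5 mice pooled for each library. The WT library came from Neurog3Cre; Rosa26tdtomato mice. The NFKO library came from Neurog3Cre-FoxO1 f/f; Rosa26tdtomato mice, in which the same Cre was combined with 2 floxed FoxO1 alleles. Both groups carried the Cre and the reporter, so that the sort was for cells marked through Neurog3Cre, endocrine or not. There was 1 library per group. No test between WT and NFKO was therefore possible, and each interval given is an exact 95% interval that covers counting error only. The mice of a pool cannot be told apart, so genotype, pool and library cannot be told apart either.

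Serotonin is made in the gut by enterochromaffin (EC) cells, which are endocrine cells of the epithelium. Tryptophan hydroxylase 1 (Tph1) carries out the first and rate-limiting step with tetrahydrobiopterin as cofactor. Aromatic L-amino acid decarboxylase (Ddc) completes the synthesis, and the vesicular monoamine transporters VMAT1 (Slc18a1) and VMAT2 (Slc18a2) load the product into granules. GTP cyclohydrolase 1 (Gch1) starts the synthesis of the cofactor. The serotonin transporter (Slc6a4) clears released serotonin into neighboring cells, where the monoamine oxidases (Maoa, Maob) degrade it. EC cells are also known to make tachykinins from Tac1.

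All 9 genes are protein coding in GENCODE M21 on GRCm38. Tph1 (ENSMUSG00000040046) lies on the minus strand at chr7:46644641-46672537 and Tac1 (ENSMUSG00000061762) on the plus strand at chr6:7554879-7565834. Maoa and Maob lie side by side on chromosome X, at chrX:16619698-16687818 and chrX:16709282-16817366. Exons of Slc18a1 at chr8:69037711-69089235 overlap Atp6v1b2 and Gm15716 on the opposite strand, exons of Ddc overlap 1700042O10Rik, those of Slc18a2 overlap Gm29261 and those of Slc6a4 overlap Gm12343, so that counts of these 4 genes depend on strand. The promoter sequences of Tph1, Tac1 and Slc18a2 are shown because these genes had the widest gap between EC-like and other endocrine-like cells, although 3′ counts do not tell which start was used. They are the 250 bases before each RefSeq start on GRCm38, written 5′ to 3′ on the gene's strand, and for Tac1 only the parts that hold matches. Motif matches are in capitals.
Tph1, start 1, chr7:46672538-46672787, minus strand: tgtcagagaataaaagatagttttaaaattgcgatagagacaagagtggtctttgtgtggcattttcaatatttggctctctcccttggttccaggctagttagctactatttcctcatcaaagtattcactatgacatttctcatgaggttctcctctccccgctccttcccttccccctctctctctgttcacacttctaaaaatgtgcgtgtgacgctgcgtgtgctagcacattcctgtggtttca
Tph1, start 2, chr7:46667378-46667627, minus strand: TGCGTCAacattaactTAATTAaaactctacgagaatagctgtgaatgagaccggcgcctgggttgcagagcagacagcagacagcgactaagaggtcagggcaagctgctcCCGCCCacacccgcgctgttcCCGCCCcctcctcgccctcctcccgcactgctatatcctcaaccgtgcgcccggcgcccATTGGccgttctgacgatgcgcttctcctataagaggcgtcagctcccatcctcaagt
Tac1, before the annotated first exon, chr6:7554811-7554878, plus strand: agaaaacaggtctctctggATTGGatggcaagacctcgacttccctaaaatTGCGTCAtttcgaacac
Tac1, motif pair inside the annotated first exon, chr6:7554946-7554975, plus strand: aggcgaggGGGCGGcTAATTAaatattgag
Slc18a2, start 1, chr19:59260628-59260877, plus strand: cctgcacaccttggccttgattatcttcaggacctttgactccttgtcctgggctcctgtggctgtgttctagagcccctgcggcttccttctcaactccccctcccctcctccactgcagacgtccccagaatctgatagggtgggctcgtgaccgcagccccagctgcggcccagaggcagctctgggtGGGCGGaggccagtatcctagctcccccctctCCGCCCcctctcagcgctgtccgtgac

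The capitals mark matches, on either strand, to 7 motifs, each named with its share in the next sentences. TGCGTCA and the TAATTA core were added to the search after the Tac1 window had been read. Of the 9 members, 7 had 9 annotated starts between them, while Slc18a1 and Maob had no entry. TGCGTCA, a variant of the cyclic AMP response element, stood in 4 of these 9 windows (Tph1 start 2, Tac1, Gch1 and Slc6a4) and in 1.75% of all 32851 promoter windows. TAATTA, a core bound by many homeodomain proteins, stood in the windows of Tph1 start 2 and Tac1 and in 4.84% of all windows. Start 1 of Tph1 held none of the 7 motifs. Neither TGACGTCA (1.55% of all windows) nor the forkhead core GTAAACA (3.17%) stood in any of the 9. TATAAA stood in 2 of the 9 windows and in 12.4% of all. The GGGCGG box was found in 6 of the 9 and in 32.7% of all windows, and CCAAT in 4 and in 33.8%. These matches describe letters, not binding.

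After filtering, the WT library held 3003 cells with 77670477 UMIs and the NFKO library 5292 cells with 106402904 UMIs (UMI, unique molecular identifier, 1 counted transcript molecule). The median depth was 16753 UMIs per cell in WT and 16587 in NFKO. Barcodes with over 25% mitochondrial UMIs made up 35.6% of deposited WT and 17.3% of deposited NFKO barcodes, and 4 barcodes were shared by kept cells of both libraries. Foxo1 itself was not lower in EC-like cells of the library labelled NFKO. It stood at 16.7 CPM (UMIs of the gene per 1000000 UMIs of the class) in WT and 18.5 in NFKO EC-like cells. In the other endocrine-like cells it was lower in NFKO, at 29.7 CPM (26.2 to 33.5) in WT and 23.7 CPM (21.7 to 25.8) in NFKO. In non-endocrine cells it stood at 8.47 and 8.38 CPM. These 3′ counts can come from outside a deleted exon and may check nothing. The study reported significantly reduced FoxO1 in sorted Tomato+ cells of NFKO mice. Among EC-like cells, 158 of 200 in WT carried Y-linked transcripts without Xist, while 445 of 514 in NFKO carried Xist alone, so the libraries differed in sex as well. The heat-shock gene Hspa1a stood at 546 CPM in WT and 41.9 CPM in NFKO EC-like cells. The part of sex and of this stress gene in the NFKO to WT values was not tested.

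Cells were clustered without the 9 genes, so that their levels did not make the classes. Of the endocrine-like cells, 200 of 991 in WT (20.2%, 17.7 to 22.8) and 514 of 1864 in NFKO (27.6%, 25.6 to 29.7) were EC-like by 9 markers that included Lmx1a, Reg4, Trpa1 and Fev. Of the 9 markers, 8 stood above the other endocrine-like cells in both libraries. Lmx1a, a homeodomain factor of EC cells, stood at 309 CPM in WT and 331 CPM in NFKO, against 2.88 and 3.19 CPM, and Reg4 at 4119 and 6762 CPM against 13.6 and 69.8 CPM. Chga, a granule protein gene that was not on the list, stood at 8330 CPM in WT and 9176 CPM in NFKO EC-like cells, against 611 and 806 CPM in the other endocrine-like cells. Not every marker set the class apart. Reg4 stood at 294 CPM in WT and 172 CPM in NFKO non-endocrine cells, above the other endocrine-like but below the EC-like level. Adra2a stood at 25.1 CPM in WT and 6.21 CPM in NFKO EC-like cells but at 25.1 and 19.4 CPM in non-endocrine cells, and Fev in the Cartpt-led cluster described next, at 121 and 146 CPM, lay below the 149.6 and 173 CPM of the other endocrine-like cells. Il12a, another marker on the list, was at 0 UMIs in WT and 4 UMIs in NFKO. These genes took part in the clustering, so their levels are a description. The EC-like cells fell into 2 clusters. A cluster led by the homeodomain gene Mnx1 held 168 WT and 249 NFKO cells, and a cluster led by the neuropeptide gene Cartpt held 32 WT and 265 NFKO cells. Thus 84% of WT and 48.4% of NFKO EC-like cells were Mnx1-led. Values pooled over the EC-like cells therefore weighted the 2 clusters differently in the 2 libraries.

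Among endocrine-like cells, Tph1, Tac1 and Slc18a2 were found mostly in EC-like cells, whereas Ddc and Gch1 were shared with the other endocrine-like cells and Slc18a1 lay in between. Among the named classes, Maoa and Slc6a4 were highest in enterocyte-like cells. In unnamed cluster 14, which is led by Apol10a and Gsdmc4, Slc6a4 stood at 39.8 CPM in WT and 28.7 CPM in NFKO. Levels are given as CPM of a class, summed over its cells within a library. Of the 9 members, 6 (Tph1, Tac1, Slc18a1, Slc18a2, Gch1 and Maob) were at least 2-fold higher in EC-like than in other endocrine-like cells in both libraries, where 4.27% of the 12180 genes compared were. For Gch1 this held in Mnx1-led but not in Cartpt-led cells, whose level is given below. The median log2 ratio of the 9 members was 1.99 in WT and 1.91 in NFKO, against 0.03 and 0.14 over all genes compared. Slc6a4 was the 1 member at least 2-fold lower in both (4.65% of genes), on 4 WT and 10 NFKO UMIs in EC-like cells, with ratios of 0.418 (0.108 to 1.16) and 0.272 (0.128 to 0.516), of which the first included equality.

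**Figure D1:**
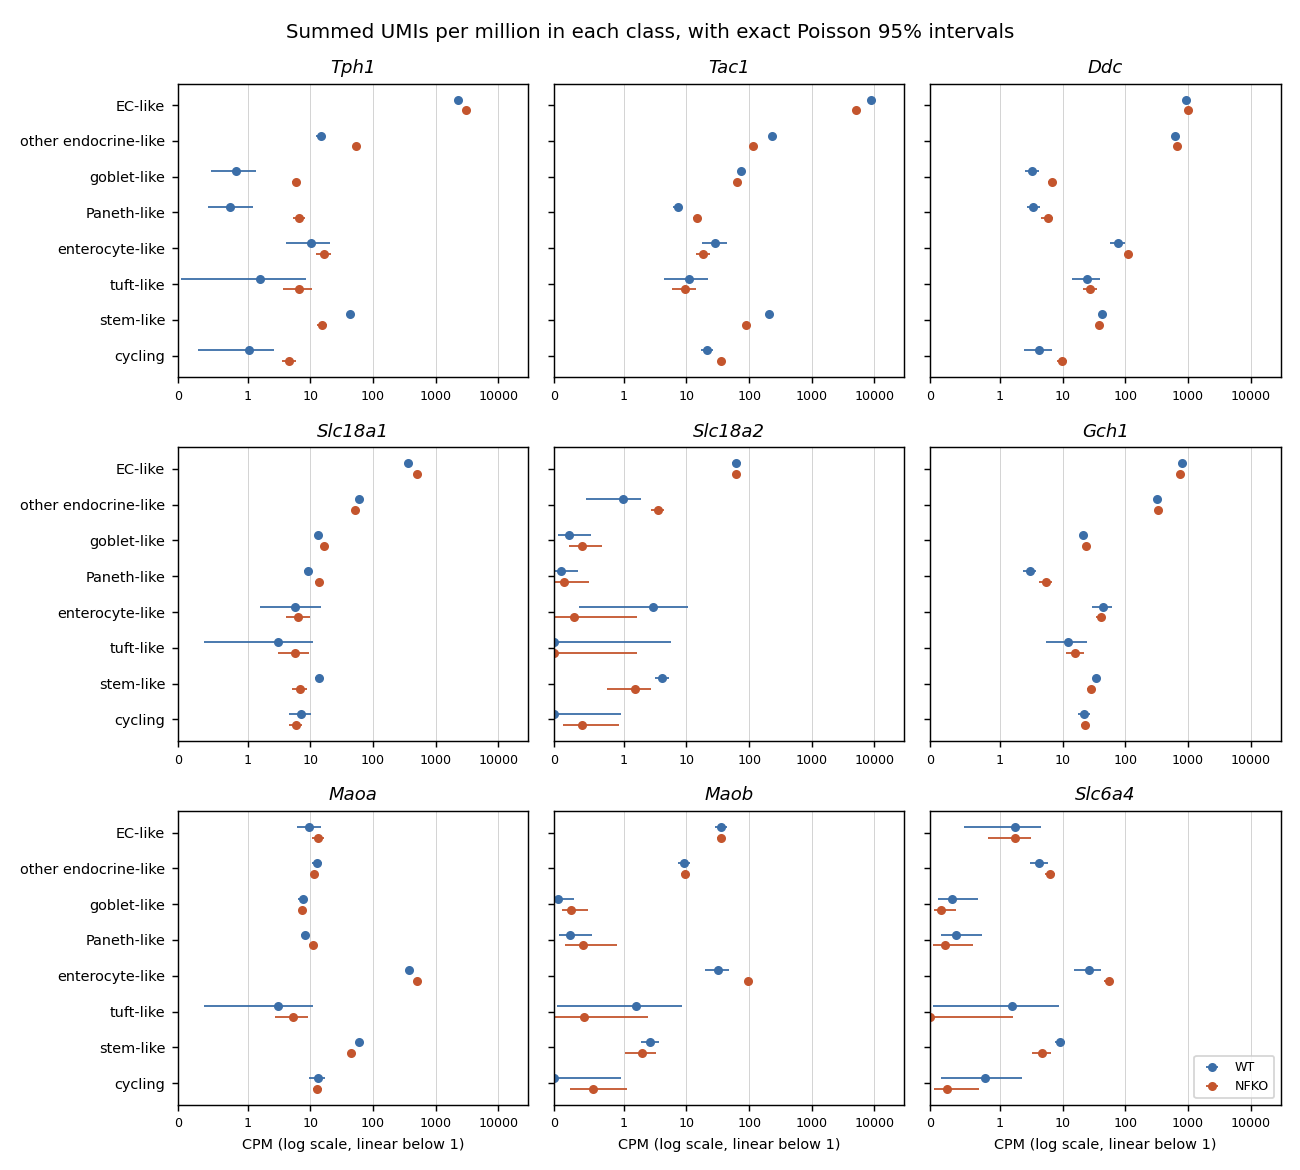
Level of each of the 9 genes in CPM (x axis, logarithmic above 1 and linear below) in 8 cell classes (y axis), for the WT (blue) and NFKO (orange) libraries, with exact Poisson 95% intervals from counting. Tph1 and Tac1 are highest in EC-like cells, Ddc and Gch1 are high in both endocrine classes, and, of the classes plotted, Maoa and Slc6a4 are highest in enterocyte-like cells.

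Tph1, the committed step, stood at 2308 CPM (2246 to 2372) in WT and 3090 CPM (3045 to 3135) in NFKO EC-like cells. In the other endocrine-like cells it stood at 14.6 CPM in WT and 53.1 CPM in NFKO, a ratio of 158 (133 to 189) and 58.2 (54.8 to 61.7). The EC-like cells were thus above the other endocrine-like cells by more than counting error in each library. With every cell thinned to 2000 UMIs, a Tph1 UMI was found in 84.9% (79.2 to 89.6) of WT and 91.9% (89.2 to 94.1) of NFKO EC-like cells. It was found in 1.15% and 3.70% of the other endocrine-like cells, and in 0 of 844 WT and 2.17% of NFKO goblet-like cells, a class that should lack the gene. Without thinning these shares were 93.5% and 97.1% in EC-like, 4.05% and 13.7% in other endocrine-like, and 1.89% and 9.98% in goblet-like cells, at median depths of 11526 and 11449, 12237 and 16538, and 24257 and 22385 UMIs. Goblet-like Tph1 was 0.833 CPM in WT and 5.90 CPM in NFKO, Paneth-like Tph1 0.751 and 6.67 CPM and cycling-cell Tph1 1.05 and 4.61 CPM, so that a low level of Tph1 ran through the non-endocrine classes of NFKO. That level sets the background below which a Tph1 share was not read as expression.

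Outside EC-like cells, Tph1 UMIs sat in few places. In WT, 5 cells held 74.2% of the 132 Tph1 UMIs of other endocrine-like cells. In NFKO, 907 of 1183 such UMIs lay in the Cck-led cluster, where Tph1 stood at 533 CPM (499 to 569) against 34.7 CPM (15.0 to 68.4) in the 16 WT cells of that cluster. After thinning, 37.7% of its 77 NFKO cells had a Tph1 UMI. Progenitor-like cells stood at 2.66 CPM in WT on 2 UMIs and 50.2 CPM (40.6 to 61.6) in NFKO, with 62.4% of the NFKO UMIs in 5 cells. In the remaining 9 endocrine-like clusters Tph1 was at most 31.9 CPM in either library. Among them were the Gip-led cells at 15.7 CPM in WT and 16.3 CPM in NFKO, which did not differ beyond counting error.

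Tac1 was the peptide gene of the list. It stood at 8960 CPM (8838 to 9084) in WT and 5107 CPM (5049 to 5166) in NFKO EC-like cells, and at 234 and 115 CPM in the other endocrine-like cells, a ratio of 38.3 (36.6 to 40.1) and 44.3 (42.6 to 46.2). Among the other endocrine-like clusters the Gip-led cells carried most of it, with 704 CPM (671 to 739) in WT and 425 CPM (406 to 444) in NFKO. These Gip-led cells held 1660 of 2113 WT and 1955 of 2567 NFKO Tac1 UMIs of the class, and 26.7% of WT and 23.5% of NFKO Gip-led cells had a Tac1 UMI after thinning. They were the only other endocrine-like cluster above 100 CPM of Tac1 in both libraries, while the Cck-led cluster stood at 386 CPM in WT, with 98.9% of its UMIs in 5 cells, and 44.7 CPM in NFKO. The cluster named Gip-led thus carried Tac1 at a low Tph1 level. This did not hold for all clusters called by Gip. Tac1 stood at 25.9 CPM in WT and 27.9 CPM in NFKO cells of Gip-led b, and at 53.2 and 37.2 CPM in Gip-led c.

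**Figure D2:**
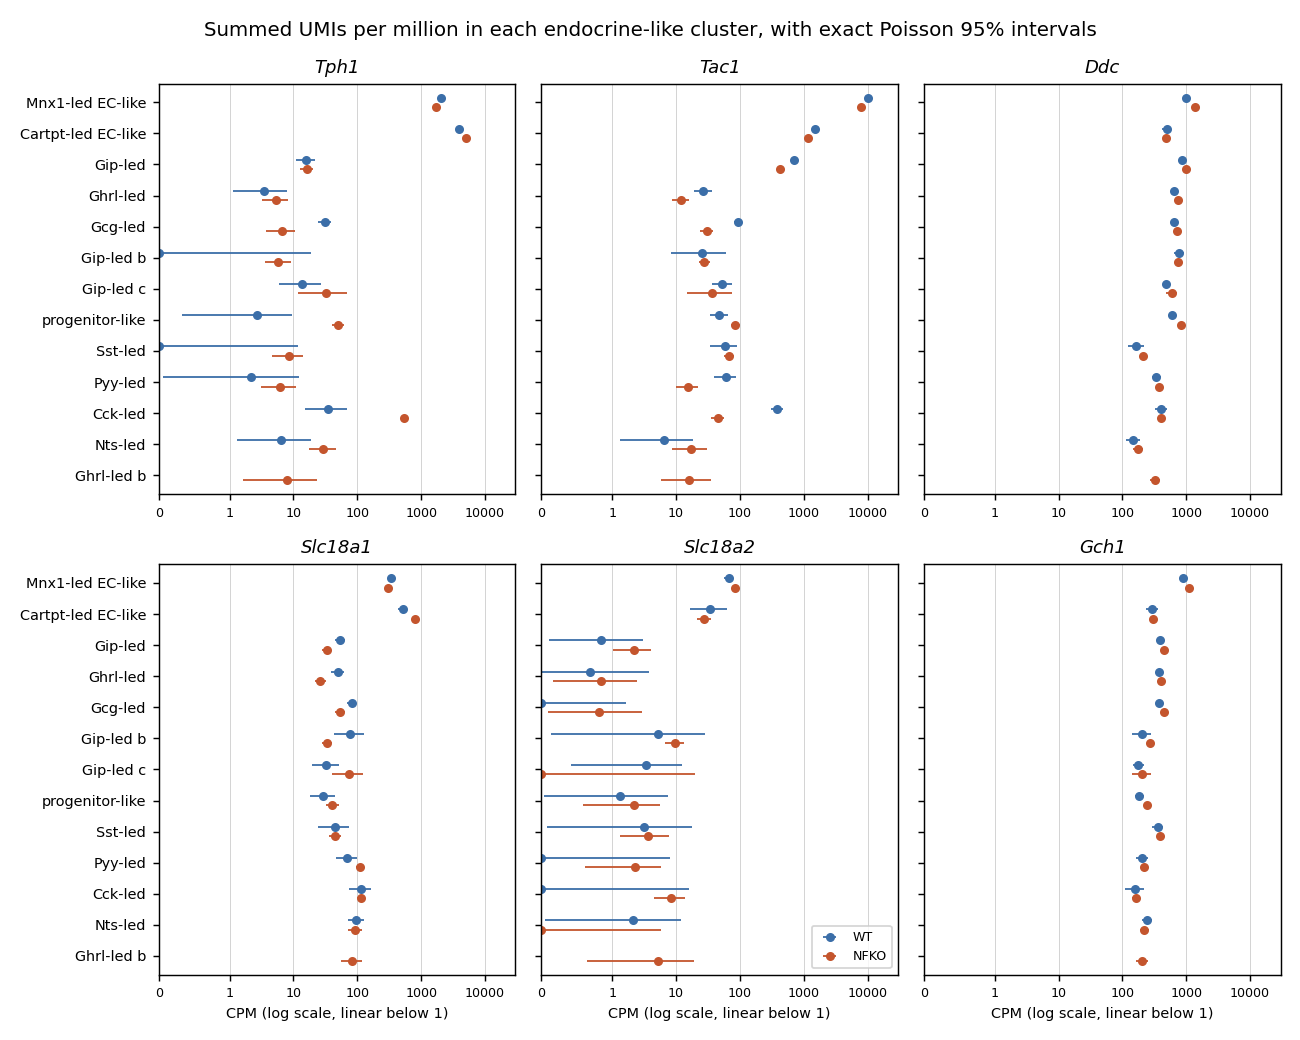
Level of Tph1, Tac1, Ddc, Slc18a1, Slc18a2 and Gch1 in CPM (x axis, logarithmic above 1) in the 13 endocrine-like clusters (y axis), WT in blue and NFKO in orange, with exact Poisson 95% intervals. The 2 EC-like clusters at the top lead for Tph1, Tac1, Slc18a1 and Slc18a2. The cluster Gip-led, but not Gip-led b or Gip-led c, comes next for Tac1. Cck-led NFKO cells come next for Tph1 at 533 CPM, while Ddc and Gch1 are spread over all clusters.

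Tac1 UMIs were also found outside the endocrine-like cells. Goblet-like cells had 75.6 CPM (71.8 to 79.6) in WT and 64.5 CPM (61.8 to 67.4) in NFKO, and 10.1% of WT and 8.18% of NFKO goblet-like cells had a Tac1 UMI after thinning. Paneth-like cells of the same libraries had 7.27 and 14.5 CPM and tuft-like cells 10.9 and 9.57 CPM, so the goblet-like level lay above that of these 2 classes beyond counting error. Enterocyte-like cells had 29.1 CPM in WT and 18.5 CPM in NFKO, and cycling cells 21.2 and 35.4 CPM. How much of the goblet-like level was background was not tested. The goblet-like Tac1 UMIs were spread over many cells, and the 5 richest held 15.4% in WT and 19.8% in NFKO. Stem-like cells stood at 208 CPM in WT and 87.8 CPM in NFKO, but there 5 cells held 30.9% and 78.5% of the UMIs. The same cluster had 43.3 CPM of Tph1 in WT and 15.7 CPM in NFKO, with 34.8% and 76.1% in 5 cells.

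The 2 vesicular transporters differed in reach. Slc18a1 stood at 356 CPM (332 to 382) in WT and 512 CPM (493 to 530) in NFKO EC-like cells, and at 61.0 and 51.2 CPM in the other endocrine-like cells, a ratio of 5.84 (5.24 to 6.52) and 10.0 (9.34 to 10.7). Every other endocrine-like cluster had some Slc18a1, from 26.5 CPM in the Ghrl-led cells of NFKO to 114 CPM in the Cck-led cells of NFKO. Slc18a2 stood at 62.9 CPM (53.0 to 74.1) and 61.0 CPM (54.9 to 67.8) in EC-like cells and at 0.997 and 3.50 CPM in the others, a ratio of 63.1 (32.3 to 141) and 17.4 (13.6 to 22.6). The WT denominator was 9 UMIs. Of thinned EC-like cells, 39.7% in WT and 51.0% in NFKO had a UMI of Slc18a1 without Slc18a2, 2.51% and 2.96% had Slc18a2 without Slc18a1, and 7.04% and 4.94% had both. Most cells with an Slc18a2 UMI therefore had one of Slc18a1 too, namely 14 of 19 in WT and 25 of 40 in NFKO. Slc18a1 was common in EC-like cells with or without Slc18a2, so this overlap alone does not show that the 2 transcripts went together.

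Ddc was general to endocrine-like cells. It stood at 922 CPM (883 to 962) in WT and 995 CPM (970 to 1021) in NFKO EC-like cells and at 623 and 678 CPM in the others, a ratio of 1.48 (1.41 to 1.56) and 1.47 (1.42 to 1.51), below the 2-fold limit. In Cartpt-led cells Ddc stood at 498 CPM in WT and 476 CPM in NFKO, below the other endocrine-like cells. The Gip-led cells had 853 CPM in WT and 985 CPM in NFKO, whereas Nts-led cells had 148 and 178 CPM and Sst-led cells 163 and 211 CPM. Thinned cells with a Ddc but no Tph1 UMI made up 65.0% of WT and 64.7% of NFKO other endocrine-like cells. In those cells the decarboxylase was detected without the hydroxylase at this depth.

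Gch1, the cofactor enzyme, stood at 809 CPM (772 to 847) in WT and 757 CPM (735 to 780) in NFKO EC-like cells and at 325 and 337 CPM in the others, a ratio of 2.49 (2.34 to 2.64) and 2.24 (2.16 to 2.33). In Cartpt-led cells Gch1 stood at 290 CPM in WT and 305 CPM in NFKO, no higher than in the other endocrine-like cells. In Mnx1-led cells Gch1 stood at 884 and 1086 CPM. Across the other endocrine-like clusters it ran from 156 CPM in Cck-led WT cells to 451 CPM in Gcg-led NFKO cells. Ddc and Gch1 without Tph1 were found together in 29.7% of WT and 29.5% of NFKO thinned other endocrine-like cells. Of the 9 members, 7 were at least 2-fold higher in EC-like than in non-endocrine cells in both libraries, where 36.7% of genes were. In other endocrine-like over non-endocrine cells 4 members (Tac1, Ddc, Slc18a1 and Gch1) were, and 35.6% of genes.

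Genes of serotonin breakdown and uptake followed another order. Maoa stood at 9.68 CPM (6.07 to 14.7) in WT and 13.3 CPM (10.5 to 16.6) in NFKO EC-like cells, close to the 13.0 and 11.7 CPM of other endocrine-like cells, with ratios of 0.747 (0.451 to 1.19) and 1.14 (0.870 to 1.47). In enterocyte-like cells Maoa stood at 379 CPM (335 to 428) in WT and 513 CPM (489 to 537) in NFKO, 39.2 times (25.3 to 63.6) and 38.6 times (30.7 to 49.2) the EC-like level. Slc6a4 stood at 26.2 CPM (15.5 to 41.3) and 54.2 CPM (46.7 to 62.6) in enterocyte-like cells and at 1.76 CPM (0.480 to 4.51) and 1.72 CPM (0.827 to 3.17) in EC-like cells. Maoa and Slc6a4 were the 2 members at least 2-fold higher in enterocyte-like than in EC-like cells in both libraries, where 9.24% of genes were. Enterocyte-like cells were shallow, with median depths of 3998 and 5136 UMIs.

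Maob did not follow Maoa. It stood at 36.1 CPM (28.7 to 44.8) in WT and 35.2 CPM (30.5 to 40.4) in NFKO EC-like cells and at 9.08 and 9.39 CPM in the others, a ratio of 3.97 (2.89 to 5.46) and 3.75 (3.08 to 4.57). Enterocyte-like cells had 32.0 CPM (20.03 to 48.4) in WT and 97.9 CPM (87.7 to 109) in NFKO, while goblet-like cells had 1 and 8 UMIs in all. Among the other endocrine-like clusters, Cck-led cells had 73.8 CPM in WT and 47.6 CPM in NFKO and Gcg-led cells 17.2 and 23.0 CPM.

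The 2 EC-like clusters split the list in opposite directions, and both libraries showed the same split. Of 8 members with enough UMIs, 4 (Tac1, Ddc, Slc18a2 and Gch1) were at least 1.5-fold higher in Mnx1-led than in Cartpt-led cells in both libraries, where 17% of 9062 genes were. The other 4 (Tph1, Slc18a1, Maoa and Maob) were at least 1.5-fold lower, where 10.4% of genes were. The intervals of Maoa and Maob in WT, on 4 and 16 UMIs in Cartpt-led cells, included equality.

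Tph1 stood at 2081 CPM (2018 to 2146) in WT and 1710 CPM (1666 to 1755) in NFKO Mnx1-led cells, and at 3866 CPM (3643 to 4100) and 4985 CPM (4897 to 5075) in Cartpt-led cells, so that Mnx1-led cells held 0.538 and 0.343 of the Cartpt-led level. Tac1 went the other way, with 10049 CPM in WT and 7967 CPM in NFKO Mnx1-led cells against 1494 CPM (1356 to 1642) and 1178 CPM (1136 to 1222) in Cartpt-led cells, a ratio of 6.73 (6.11 to 7.42) and 6.76 (6.51 to 7.03). The Tac1 ratio was therefore almost the same in the 2 libraries. Ddc was 1.98 and 2.89 times as high in Mnx1-led cells, Gch1 3.04 and 3.57 times, and Slc18a2 1.94 and 3.06 times, while Slc18a1 was 0.642 and 0.380 times as high.

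Cartpt-led cells also carried more secretin transcript (Sct), with 23200 CPM in WT and 27488 CPM in NFKO against 2948 and 3040 CPM in Mnx1-led cells. Secretin is a hormone that EC cells are known to add as they move from crypt to villus. Enterocyte markers, 7 in all, summed to 2531 CPM in WT and 2306 CPM in NFKO Cartpt-led cells and to 339 and 400 CPM in Mnx1-led cells, and 7 goblet markers to 3621 and 7276 CPM against 963 and 2483 CPM. Their part in the member values was not tested. Immune markers reached at most 2 UMIs in either cluster, and 5 of 6 mast cell markers (Cpa3, Mcpt1, Mcpt2, Tpsb2 and Fcer1a) were at 0 in both clusters and both libraries. The remaining mast marker, Kit, stood at 72.6 CPM in WT and 35.0 CPM in NFKO EC-like cells.

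Single cells showed the same division. Among cells with at least 5000 UMIs, the median Tph1 level was 1835 CPM in 160 WT and 1621 CPM in 238 NFKO Mnx1-led cells, and 3549 CPM in 28 WT and 4466 CPM in 229 NFKO Cartpt-led cells. The median Tac1 level was 10472 and 8400 CPM in Mnx1-led and 1224 and 450 CPM in Cartpt-led cells. Within Mnx1-led cells the 2 genes went together, with a Spearman rho across cells of 0.40 in WT and 0.44 in NFKO. Within Cartpt-led cells they went apart, with -0.54 across 28 WT and -0.34 across 229 NFKO cells. Cells of a library share preparation and sequencing, and the levels of a cell share its total, so these values are a description. Slc18a1 had a rho with Tph1 of 0.19 and 0.27 in Mnx1-led and 0.12 and 0.02 in Cartpt-led cells, and Gch1 with Tph1 of -0.10 and -0.04, then 0.06 and 0.03. Weak values of this size in sparse counts are not read as a relation.

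**Figure D3:**
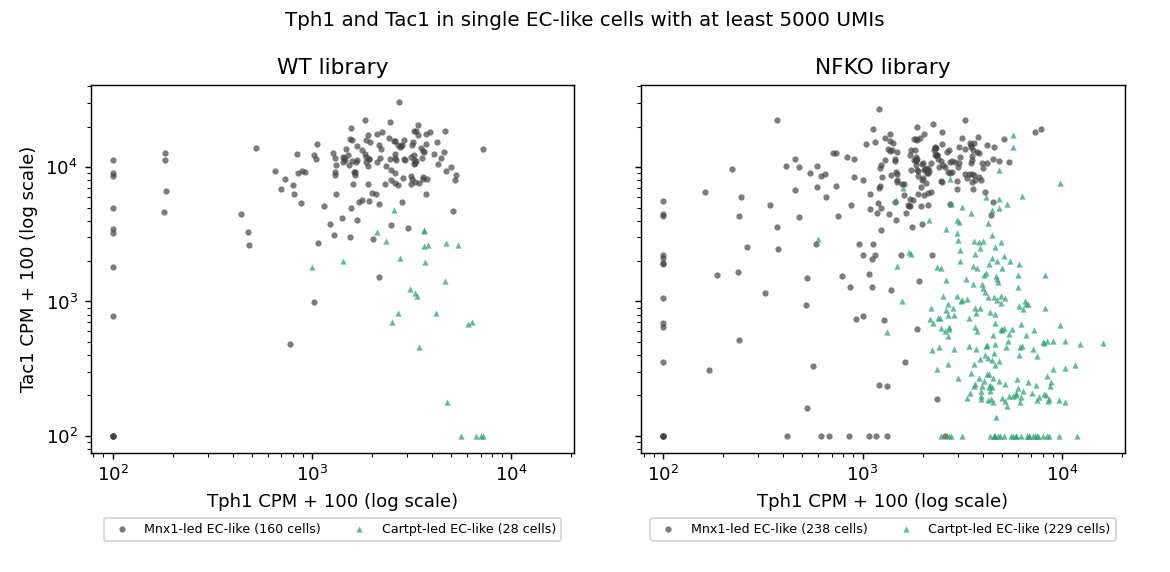
Tph1 (x axis) and Tac1 (y axis) in CPM plus 100, both logarithmic, for each EC-like cell with at least 5000 UMIs in the WT (left) and NFKO (right) library; circles are Mnx1-led and triangles Cartpt-led cells. Mnx1-led cells crowd at high Tac1, with medians of 10472 and 8400 CPM, and Cartpt-led cells spread downward in Tac1 at high Tph1.

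Most EC-like cells held both transcripts. After thinning to 2000 UMIs, Tph1 and Tac1 were detected together in 80.9% (74.7 to 86.1) of 199 WT and 67.6% (63.3 to 71.7) of 506 NFKO EC-like cells. The product of the single shares was 79.4% and 67.7%, so co-detection was near what the single shares alone give. This product pools 2 clusters in which the rho of the 2 genes had opposite signs. The near match therefore does not show that the 2 genes were independent. In Mnx1-led cells the shared detection was 82.1% in WT and 78.9% in NFKO, and all 138 WT cells with a Tph1 UMI also had a Tac1 UMI. In Cartpt-led cells every thinned cell had a Tph1 UMI (31 in WT and 259 in NFKO), and 74.2% (55.4 to 88.1) and 56.8% (50.5 to 62.9) also had a Tac1 UMI. Cells with Tph1 but no detected Tac1 thus lay mainly in the Cartpt-led cluster.

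**Figure D4:**
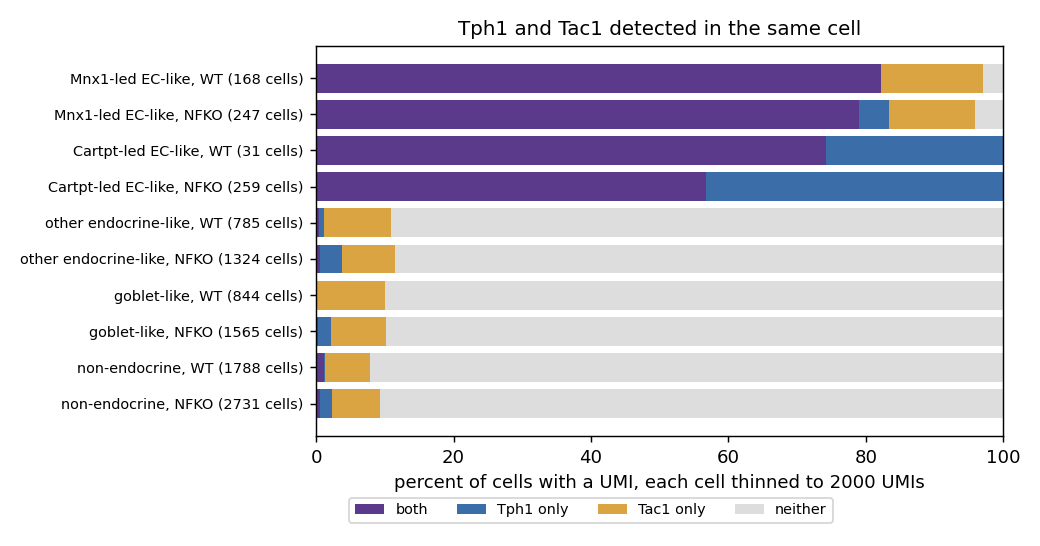
Percent of cells (x axis) with a UMI of both Tph1 and Tac1, of 1 of them or of neither, with each cell thinned to 2000 UMIs, by class and library (y axis, with the number of cells). Both EC-like clusters are dominated by cells with both transcripts, from 56.8% to 82.1%, and outside them cells with Tac1 alone are the most frequent of the positive cells.

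Outside EC-like cells the overlap was small. Both transcripts were found in 3 of 785 WT and 8 of 1324 NFKO other endocrine-like cells, and in 20 of 1788 WT and 15 of 2731 NFKO non-endocrine cells. Of the 23 WT non-endocrine cells with a Tph1 UMI, 20 also had Tac1. In goblet-like cells 0 of 844 WT and 4 of 1565 NFKO cells had a UMI of both at this depth, which does not show that the other cells lacked Tph1: without thinning, 1.89% of WT goblet-like cells had a Tph1 UMI.

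Fewer cells held the synthesis chain as a whole at this depth. Tph1 and Ddc were found together in 69.3% (62.4 to 75.7) of WT and 63.8% (59.5 to 68.0) of NFKO EC-like cells. Adding at least 1 vesicular transporter left 37.7% and 38.1%, and adding Gch1 left 29.1% (22.9 to 36.0) and 22.1% (18.6 to 26.0). That last share was 32.7% in WT and 28.3% in NFKO Mnx1-led cells, and 9.68% (2.04 to 25.8) and 16.2% (11.9 to 21.3) in Cartpt-led cells. A Gch1 UMI was found in 83.9% and 85.0% of Mnx1-led and in 45.2% and 41.7% of Cartpt-led cells. UMIs of the full chain were seen in 0 of 785 WT and 0 of 1324 NFKO other endocrine-like cells. Most EC-like cells did not show the chain at this depth either, so these counts do not limit the share of cells that express it.

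The labels' own contrast was NFKO against WT. Over all EC-like cells, Tac1 was the 1 of 8 members compared that passed 1.5-fold, lower in NFKO at 0.570 (0.560 to 0.580) of the WT level, where 20.1% of 11572 genes passed in either direction. Tph1 was 1.34 (1.30 to 1.38) times the WT level and Slc18a1 1.44 (1.33 to 1.55) times. Ddc was at 1.08, Slc18a2 at 0.970, Gch1 at 0.936, Maoa at 1.37 and Maob at 0.975 times, and the median log2 ratio was 0.04, against 0.06 over all genes compared. The directions of Ddc and Gch1 were not stable, since Ddc was at 0.806 in male-typed cells and Gch1 at 1.18 with both EC-like clusters weighted equally.

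Within the clusters these values changed. In Mnx1-led cells Tac1 was at 0.793 (0.778 to 0.808) and in Cartpt-led cells at 0.789 (0.713 to 0.875) of the WT level, and with the 2 clusters weighted equally at 0.792. The pooled ratio of 0.570 lay below both, and the Cartpt-led cluster, low in Tac1, was 16% of WT and 51.6% of NFKO EC-like cells. Tph1 turned direction between clusters, at 0.821 (0.789 to 0.855) in Mnx1-led and 1.29 (1.21 to 1.37) in Cartpt-led cells. Ddc was at 1.40 (1.32 to 1.47) and Gch1 at 1.23 (1.16 to 1.30) in Mnx1-led cells, and at 0.955 (0.803 to 1.14) and 1.05 (0.836 to 1.33) in Cartpt-led cells. Maob, at 0.654 (0.462 to 0.926), was the 1 member past 1.5-fold in Mnx1-led cells (17.2% of genes, 9.41% higher and 7.81% lower), and Slc18a1, at 1.54 (1.30 to 1.83), the 1 in Cartpt-led cells (35.1% of genes).

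In cells typed as male, Tac1 and Tph1 kept these directions. Over all male-typed EC-like cells Tac1 was at 0.426 (0.405 to 0.448) and Tph1 at 1.53 (1.44 to 1.62) of the WT level. Tac1 was at 0.713 (0.675 to 0.753) in Mnx1-led and 0.758 (0.646 to 0.889) in Cartpt-led cells, and Tph1 at 0.699 (0.617 to 0.788) and 1.35 (1.24 to 1.47), on 14 and 25 NFKO cells. Slc18a1 was at 1.75 (1.41 to 2.18) in male-typed Cartpt-led cells, while Maob in male-typed Mnx1-led cells was at 1.07 (0.411 to 2.35) on 7 NFKO UMIs, an interval that included equality. Hspa1a stood at 521 CPM in WT and 19.4 CPM in NFKO Mnx1-led cells and at 719 and 72.9 CPM in Cartpt-led cells, and moved with the library in both.

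**Figure D5:**
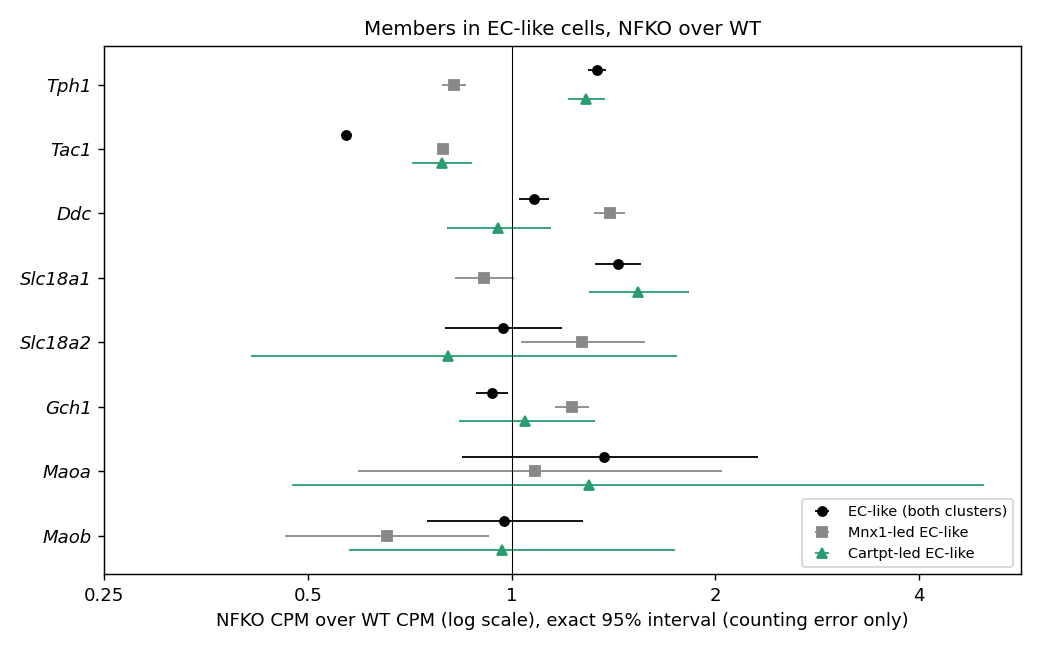
NFKO CPM over WT CPM (x axis, logarithmic) for 8 of the genes (y axis) over all EC-like cells (black circles) and within Mnx1-led (gray squares) and Cartpt-led cells (green triangles), with exact 95% intervals from counting. The pooled Tac1 ratio of 0.570 lies below both cluster values, 0.793 and 0.789, and Tph1 lies on opposite sides of 1 in the 2 clusters.

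In the other endocrine-like cells pooled, Tac1 was at 0.493 (0.465 to 0.522) of the WT level. The pool was made up differently in each library, with 16 WT and 204 NFKO cells in the cluster Gip-led b and 140 and 58 in Gip-led c. Tac1 was at 0.603 (0.565 to 0.644) in Gip-led, 0.328 (0.248 to 0.430) in Gcg-led, 0.449 (0.284 to 0.711) in Ghrl-led, 0.253 (0.143 to 0.445) in Pyy-led and 0.116 (0.0841 to 0.159) in Cck-led cells. The Cck-led value rested on 89 WT UMIs in a cluster of 16 WT cells, nearly all of them held by a few cells, as given above. Its interval does not cover that clumping. Tac1 was higher in NFKO progenitor-like cells, at 1.79 (1.24 to 2.64), and the intervals of the clusters Gip-led b (1.08), Gip-led c (0.699), Sst-led (1.19) and Nts-led (2.66) included equality. Tph1 was at 3.63 (3.03 to 4.38), largely through the Cck-led cluster described above, Slc18a2 at 3.51 (1.76 to 7.97) and Slc6a4, just past the limit, at 1.505 (1.05 to 2.21). With Tac1 these were 4 of 9 members past 1.5-fold, where 16.9% of 13694 genes were, 7.11% higher and 9.78% lower. For Slc18a2 and Slc6a4 the interval included equality in every single cluster with cells in both libraries. Gip-led b held 33 of the 78 NFKO UMIs of Slc18a2 and 59 of the 141 of Slc6a4. In male-typed other endocrine-like cells the Tac1 ratio was 0.0947 (0.0658 to 0.132), on 35 UMIs of 85 NFKO cells, and the Tph1 ratio 2.04 (1.43 to 2.86). Ddc, at 1.09, and Gch1, at 1.04, stood near equality.

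Goblet-like cells lay in different clusters in each library, with 582 WT and 22 NFKO cells in cluster 3, 87 and 797 in cluster 1 and 176 and 794 in cluster 0. Over all of them Tac1 was at 0.853 (0.797 to 0.913), and Tph1 and Ddc, both near background there, were at 7.08 and 2.08, the 2 of 6 members past 1.5-fold (17.1% of genes). In enterocyte-like cells Maoa was at 1.35 (1.19 to 1.55), Maob at 3.06 (1.99 to 4.95) and Slc6a4 at 2.07 (1.28 to 3.58). Tph1, Tac1, Maob and Slc6a4 made 4 of 8 members past 1.5-fold there, where 50% of genes were, 29% higher and 21% lower, so that the members' share equalled the background. Over all non-endocrine cells Tph1 was at 0.662, Tac1 at 0.612 and Slc18a2 at 0.399 (8.26% of genes lower) and Maob at 4.61 of the WT level, 4 of 9 members where 22.8% of genes passed. The pooled direction of the first 3 was that of stem-like cells, which held 621 of the 665 Tph1, 2978 of the 4695 Tac1 and 59 of the 67 Slc18a2 UMIs of WT and were at 0.362, 0.423 and 0.371 of the WT level. Tph1 went the other way in goblet-like (7.08), Paneth-like (8.88) and cycling cells (4.41), as did Tac1 in Paneth-like (1.99) and cycling cells (1.67). Of the non-endocrine Maob UMIs, 334 of 370 in NFKO and 22 of 67 in WT lay in enterocyte-like cells. That class held 3412115 UMIs in NFKO and 688227 in WT. Stem-like Maob was at 0.733 (0.367 to 1.38), so the pooled 4.61 does not describe every non-endocrine class.

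Across the 22 endocrine-like cluster and library points with at least 30 cells, the genes with the pattern most like Tph1 were Lmx1a (Pearson r of log2 CPM, 0.93), Tpbg (0.93), Slc38a11 (0.91), Afp (0.90) and Il18r1 (0.89), of 8091 genes compared. Among those most like Tac1 were Gnpda2 (0.90), Lmx1a (0.88), Fbxo9 (0.87) and Slc38a11 (0.85). Among the members, the r with Tph1 was 0.87 for Slc18a1, 0.77 for Slc18a2, 0.75 for Tac1, 0.74 for Maob, 0.34 for Ddc and 0.32 for Gch1. Lmx1a, Slc38a11 and Afp were on the EC marker list, so that they are not independent of the clusters that made the points. The points of a library share its preparation and these values are a description.

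Of 45 further genes of serotonin and tachykinin handling, sensing and control, 26 had at least 50 UMIs in endocrine-like cells. Among these, 6 were at least 2-fold higher in EC-like than in other endocrine-like cells in both libraries, 3 (Slc6a19, Tdo2 and Htr1d) were lower and 17 were neither, where 4.27% of all genes were higher and 4.65% lower. Tdo2 was lower on 0 EC-like UMIs in both libraries, and Htr1d on 1 WT EC-like UMI, with a WT ratio of 0.306 (0.00719 to 2.03), which included equality. Aldh1a1, an aldehyde dehydrogenase, was 15.9 and 23.0 times as high, on 24 WT and 156 NFKO UMIs. Slc22a3, an organic cation transporter, was 15.1 times (8.28 to 29.4) as high in NFKO, with 1 WT UMI outside EC-like cells. The irritant channel gene Trpa1 was 30.5 and 37.4 times as high and the channel gene Trpc4 22.2 and 26.7 times. Lmx1a was 107 and 104 times as high, while Fev, a transcription factor of serotonin neurons, was only 2.19 and 2.14 times. Trpa1, Lmx1a and Fev were on the EC marker list, so that they are not independent of the class.

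The cofactor chain beyond Gch1 was not raised in this way. Pts was at 1.12 and 1.13 times and Qdpr, which regenerates the cofactor, at 1.56 and 1.92 times the level of the other endocrine-like cells, both under the 2-fold limit. The intestinal neutral amino acid transporter gene Slc6a19 was lower in the pooled EC-like cells, at 0.289 and 0.480 times. Mnx1-led cells had 37.3 CPM of Slc6a19 in WT and 45.3 CPM in NFKO. Cartpt-led cells had 163 and 189 CPM, nearer the 184 and 221 CPM of the other endocrine-like cells. Fev differed between the EC-like clusters, with 358 CPM in WT and 532 CPM in NFKO Mnx1-led cells against 121 and 146 CPM in Cartpt-led cells.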

How the data were processed

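Per the labels and the study's methods, Tomato+ cells were processed on the 10x Genomics 3′ platform. The deposited values are UMI counts per gene and barcode, made by the authors; the submitters' processing notes name Cell Ranger 5.0.1 and mm10. The 2 libraries held 5051 (WT) and 7540 (NFKO) barcodes. A barcode was dropped when it had under 500 detected genes or 1000 UMIs, or when mitochondrial transcripts exceeded 25%. A nearest-neighbor score against simulated doublets then removed the highest-scoring 126 WT and 340 NFKO barcodes (0.8% per 1000 barcodes). The remaining cells were clustered in 2 rounds with Seurat 5.3.0 in R 4.3.3 (2000 variable genes, 30 components, 20 neighbors, Louvain resolution 0.8), leaving out 19 genes, among them the 9 members, Foxo1, insulin and sex-linked genes.

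Clusters were named by fixed markers: a class needed at least 3 markers at 2-fold over the rest in at least 10% of cells, these thresholds being set after the data were seen. A cluster shallower than 1/3 of the library median stayed unnamed when none of its 10 leading genes was a marker of the class. This left cluster 17 unnamed. The progenitor-like name also needed a progenitor marker among the 10 leading genes. Of 22 clusters, 3 stayed unnamed. EC-like clusters are called by the gene, no member, that led in both libraries. Other endocrine-like clusters are called by their leading hormone. Names were rebuilt here and may differ from those of the study.

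UMIs were summed per class and library and divided by the class total (CPM). Levels have exact Poisson, ratios exact conditional binomial, and shares Clopper-Pearson intervals (scipy 1.17.1). Genes needed at least 20 UMIs over the groups compared. Shares with a UMI were taken after thinning cells to 2000 UMIs, which left out 32 WT and 389 NFKO cells. UMIs of a cell are not independent of its state, so intervals cover counting error only. No level was compared between genes. With 1 library per group no p-value was computed. Named genes were all members, the 5 genes most like Tph1 and Tac1 (1 of them is not reported here), and a list of related genes; members and lists were chosen with earlier results of these data known. The intervals were tested on simulated independent Poisson counts. These lack the clumping of UMIs in few cells seen here, so that test does not cover it. Promoter sequences came from RefSeq and gene positions from GENCODE M21 (GRCm38).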

Additional observations from a re-analysis of the deposited data

Results flagged for a closer look

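No group held enough libraries to single out a sample, and the cells of 3 unnamed clusters were in no comparison above. In these clusters 7 member levels had an NFKO interval wholly above the WT interval. In unnamed cluster 14, which is led by Apol10a and Gsdmc4 and holds 134 WT and 123 NFKO cells, Tph1 stood at 9.38 CPM in WT and 29.1 CPM in NFKO, Tac1 at 19.3 and 30.3 CPM, Ddc at 41.5 and 62.6 CPM and Maob at 10.2 and 24.6 CPM. In the NFKO cells of this cluster, 5 cells held 86.8% of the Tph1 and 84.1% of the Tac1 UMIs, against 20.8% for Ddc and 26.5% for Maob. In unnamed cluster 17, which is led by Nts, is shallow and has 11 of 14 endocrine markers, Tph1 stood at 69.9 CPM in WT on 13 UMIs and at 140 CPM (139.9) in NFKO, where 5 cells held 59.9% of the UMIs. In unnamed cluster 8, with a median of 1784 UMIs per cell, Tac1 stood at 180 CPM in WT on 24 UMIs and 373 CPM in NFKO, and Ddc at 37.6 CPM in WT on 5 UMIs and 112 CPM in NFKO. By the interval of the ratio, Gch1 in cluster 17 was also higher in NFKO, at 1.70 (1.08 to 2.83) times the WT level, as was Tac1, on 34 NFKO and 0 WT UMIs. Lower were Slc6a4 in cluster 14, at 0.719 (0.572 to 0.900), and Maob in cluster 17, at 0.161 (0.0347 to 0.811) on 5 and 4 UMIs. The causes were not tested.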

How the results depend on the processing

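No paired analysis was possible because each group was 1 library, and no test was made. Of the main values under the alternatives, 81 stayed within their interval or within 1.5 times the main count and 53 moved, and none of the Tph1 and Tac1 ratios among them changed direction. Other EC-like ratios of NFKO to WT, none of them past 1.5-fold, did turn. In male-typed cells Ddc (1.08) turned to 0.806, Slc18a2 (0.970) to 1.25, Maob (0.975) to 1.36, Slc6a4 (0.980) to 2.14 and Maoa (1.37) to 0 on 0 NFKO UMIs. With equal cluster weights Gch1 (0.936) turned to 1.18 and Slc18a2 to 1.11, and with equal cell weights Maob turned to 1.03 and Slc6a4 to 1.56. Maob was also at 1.08 without the 5 richest cells, and Slc6a4 at 1.14 with a stricter cell filter and 1.08 with the goblet-like level subtracted. The EC-like share in WT was 22.95% at resolution 1.2 and 23.7% when clustering used the members, and in NFKO 31.45% in male-typed cells and 25.5% with a shallow Nts-led cluster counted as endocrine-like. That alternative and the equal weighting of the EC-like clusters were chosen after seeing the data. The Tph1 ratio of EC-like to other endocrine-like cells in WT (158) was 126 at resolution 1.2, 133 with the members, 195 at 2 times the doublet rate and 579 without the 5 richest cells. In NFKO (58.2) it was 51.6 with median-of-ratios scaling, 71.0 with equal cell weights, 52.3 at resolution 0.4, 51.4 at resolution 1.2, 50.9 with the members, 105 in male-typed cells, 74.9 without the 5 richest cells, 65.3 with the goblet-like level subtracted and 52.9 with the Nts-led cluster. The Tac1 ratio in WT (38.3) was 44.6 with equal cell weights, 41.1 with a stricter cell filter, 34.6 in male-typed cells, 52.3 without the 5 richest cells and 56.1 with the goblet-like level subtracted. In NFKO (44.3) the Tac1 ratio was, in the same order of alternatives as for Tph1, 39.3, 38.8, 47.2, 41.9, 39.8, 156, 56.2, 99.4 and 46.6, and 50.6 at 2 times the doublet rate. The Tph1 ratio of NFKO to WT (1.34) was 1.41 with equal cell weights, 1.26 with the members, 1.53 in male-typed cells and 1.13 with equal cluster weights. The Tac1 ratio (0.570) was 0.557 with median-of-ratios scaling, 0.530 with equal cell weights, 0.581 at 2 times the doublet rate, 0.531 with the members, 0.426 in male-typed cells and 0.792 with equal cluster weights. The number of members past 1.5-fold (1) was 3 with equal cell weights and in male-typed cells, 2 without the 5 richest cells and with the goblet-like level subtracted, and 0 at other fold limits and with equal cluster weights. The Tph1 and Tac1 double-positive share was 89.4% in WT and 80.5% in NFKO after thinning to 5000 UMIs, 91.5% and 87.9% without thinning, and 51.3% in male-typed NFKO cells. The causes were not tested.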
